A study of Mus musculus with 240 samples.

Results

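The 32 genes described here are established transcriptional targets of p53, the transcription factor encoded by Trp53, which the study deleted. They were selected by gene symbol from the 34623 genes of the deposited expression table, and all 32 were found. By what their products do, 7 act in the cell cycle, 13 act in cell death, 5 act in DNA repair, and 7 act in metabolism and the stress response. RNA came from mouse oligodendrocyte precursor cells (OPCs, the dividing glial cells that give rise to myelinating oligodendrocytes) that had been cut out of frozen brain sections by laser capture microdissection. Mutant mice were Trp53-/- Nf1-/- (called CKO here, with both tumour suppressor genes deleted) and the comparison mice were wild-type (WT). Time is counted in days from the start of tamoxifen (dpi), a label that mice of both genotypes carry. The 48 bulk libraries, from 10 µm sections and all titled tdTpositive whatever the genotype, belong to 37 animals. They comprise 5 WT and 7 CKO animals at 12 dpi, 5 WT and 7 CKO animals at 90 dpi, and 6 WT animals and 7 CKO animals with tumours at 150 dpi, with males and females in every group. The 150 dpi CKO samples are labelled as brain tumour cells, so tumour and time point cannot be told apart in them. Small libraries, from 8 µm sections of CKO mice only, comprise 56 samples of 10 cells each (10-cell) and 40 pool-and-split controls at each of 12 and 90 dpi. The Cre driver, the deleted exons and the age of the mice are not given in the sources used here.

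p53 is held at a low level by the ubiquitin ligase Mdm2 and accumulates after DNA damage, oncogene signalling and other stresses. It then binds DNA as a tetramer and switches on genes that halt the cell cycle, repair DNA, limit growth or kill the cell. Most of these genes also have p53-independent control, so that RNA remains in cells without p53. In glial precursors, loss of p53 together with the Ras inhibitor Nf1 is a known route to malignant glioma.

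A p53 site consists of a pair of half-sites of 10 bases. RefSeq promoter windows (GRCm38.p6, from 250 bases before to 50 bases after a gene's start) were at hand for 24 of the 32 genes and were searched on both strands for exact matches to the strict p53 half-site consensus. Pmaip1, Zmat3, Trp53inp1, Perp, Tnfrsf10b, Xpc, Ddb2 and Rrm2b were not searched. A match was present in 9 of the 24 genes (37.5%), against 9.55% of all 27025 genes with a window. A pair of matches separated by at most 13 bases was present in 1 of the 24 (4.17%), against 0.074% of all genes. That gene is Cdkn1a, which encodes the cyclin-dependent kinase inhibitor p21. The window below is shown because it is the only member window with such a pair and because the gene fell in tumours. The gene's other window, chr17:29093519-29093818, held 0 matches. The half-sites, in capitals, begin 73 and 51 bases before the start at chr17:29090979 and are 12 bases apart. The letters tgacatgttc that follow the second one did not match the strict consensus.
Cdkn1a, chr17:29090729-29091028, plus strand: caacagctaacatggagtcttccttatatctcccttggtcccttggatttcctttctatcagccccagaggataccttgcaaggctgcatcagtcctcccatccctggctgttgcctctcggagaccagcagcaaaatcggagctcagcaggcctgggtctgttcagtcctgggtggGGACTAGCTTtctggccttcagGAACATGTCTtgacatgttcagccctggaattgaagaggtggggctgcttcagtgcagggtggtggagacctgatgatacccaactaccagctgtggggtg

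The other 8 genes with a match had 1 position each, shown with the half-site in capitals and 10 bases on either side, so that they can be set beside the changes reported for these genes. Each sequence runs 5′ to 3′ on the gene's strand and the coordinates are those of the capitals.
Aen, chr7:78895937-78895946, plus strand: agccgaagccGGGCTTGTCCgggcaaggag
Bax, chr7:45467090-45467099, minus strand: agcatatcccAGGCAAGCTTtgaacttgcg
Ccng1, chr11:40755462-40755471, minus strand: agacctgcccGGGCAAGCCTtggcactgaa
Ei24, chr9:36797335-36797344, minus strand: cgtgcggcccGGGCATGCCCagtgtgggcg
Gadd45a, chr6:67037438-67037447, minus strand: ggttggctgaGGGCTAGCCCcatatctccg
Gtse1, chr15:85859955-85859964, plus strand: gagcaagttgGGGCTTGCCTctgacttgcc
Polk, chr13:96519409-96519418, minus strand: catgtagcttGAACTAGCCTcaaacttatt
Sesn1, chr10:41887266-41887275, plus strand: cttggccttcAAGCTTGTTTttgctggcct

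These matches are a description of letters and not of binding. In tumours, 3 of the 9 genes with a match were lower than in WT at 150 dpi and than in CKO at 90 dpi (Cdkn1a, Ei24 and Sesn1), 2 were higher in both comparisons (Aen and Gadd45a), and 4 were called in neither by edgeR (Bax, Ccng1, Gtse1 and Polk). Of all genes, 24.3% were called higher and 21.9% lower than in WT, and 26.4% higher and 22.6% lower than in CKO. A split in direction is therefore no result about the half-sites.

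In units of 1000000 counts, the total was 0.0937 to 23.2 in bulk libraries (median 10.0), 1.64 to 6.49 in 10-cell libraries and 1.91 to 5.16 in pool-and-split libraries. The shallowest bulk library was that of WT_21167 at 90 dpi. OPC markers were present in every bulk group (12 of 12 above 0 in each), and so were the 12 neuron markers. Neuron markers summed to a median of 10490 to 12220 CPM (counts per 1000000, of totals scaled by the trimmed mean of M values, TMM) in the 5 groups without tumours and to 640.1 CPM in tumours. Nf1 averaged 191 ± 16 CPM in CKO (SD, n = 7) and 312 ± 41 CPM in WT (n = 5) at 12 dpi, with no overlap (log2 fold change -0.67 ± 0.14 SE, adjusted p = 0.0918). At 90 dpi it ran from 274.3 to 343 CPM in WT, and 6 of the 7 CKO animals had 149.5 to 205.2 CPM. The animal labelled CKO_20647 had 301.6 CPM, inside the WT range and unlike the other 6. Its neuron markers also summed to 18300 CPM, the highest of its group, and their part in its Nf1 level was not tested. At 150 dpi 6 tumours had 149.5 to 243.5 CPM, below the WT range of 252.1 to 354.6 CPM, and the tumour labelled Tumor_21256 had 273.4 CPM, inside it. Results were therefore also computed without each of these animals. Trp53 RNA averaged 31.4 ± 3.7 CPM in CKO and 32.3 ± 8.8 CPM in WT at 12 dpi and was not called (-0.06 ± 0.25 SE). Since the deleted exons are not given, neither this count nor that of Nf1 checks a deletion.

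The first question was whether p53 targets differ between CKO and WT OPCs before tumours form. In the bulk libraries, none of the 31 targets that passed the filter on low counts (all but Gdf15) was called in CKO against WT at 12 or at 90 dpi by edgeR's quasi-likelihood test, with p-values adjusted over all 16349 genes. Of all genes, 0.0183% were called at 12 dpi and 0.0489% at 90 dpi, so few genes of any kind were called. At an unadjusted p under 0.05, 2 of 31 members passed at 12 dpi (4.85% of all genes) and 3 of 31 at 90 dpi (5.2% of all genes), and DESeq2 called 0 at either time. Without the animal labelled CKO_20647, 0 members were called at 90 dpi as well. The members' median log2 fold change was 0.05 at 12 dpi (0.03 over all genes) and 0.05 at 90 dpi (0.04 over all genes), and the SE of a member was 0.14 to 1.29 at 12 dpi and 0.14 to 1.34 at 90 dpi. In bulk samples, fewer cells of a type and less RNA per cell cannot be told apart, and the captured RNA contained the neuron markers given above.

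**Figure D1:**
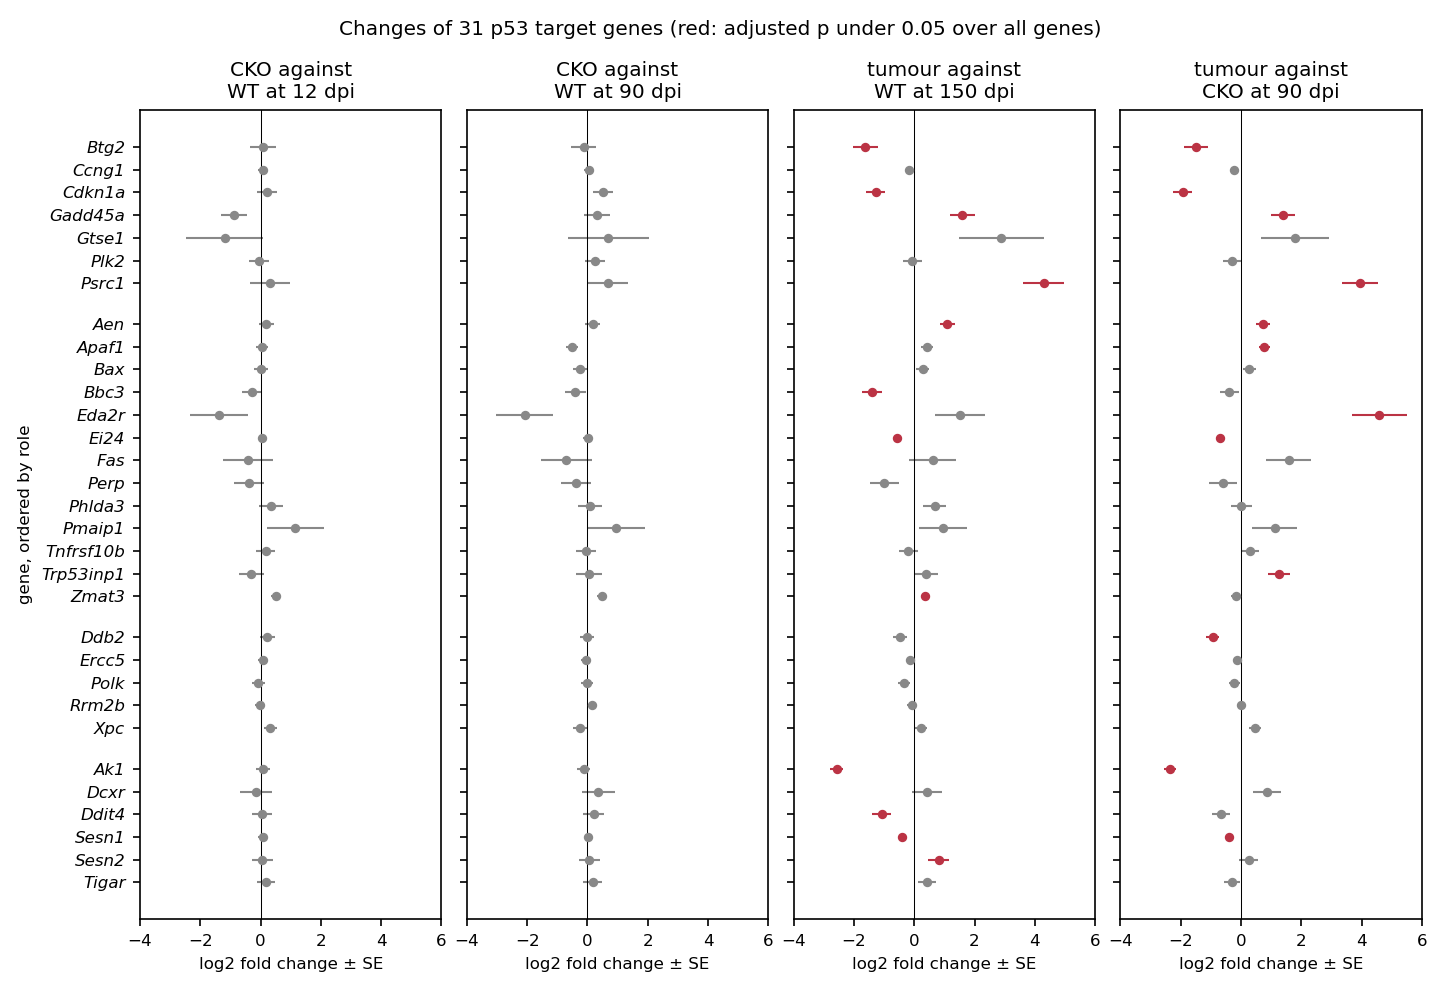
Log2 fold change ± SE (horizontal axis) of the 31 tested p53 target genes, ordered by role (vertical axis), in 4 comparisons of bulk groups, with calls at an adjusted p under 0.05 in red. The CKO against WT panels hold no call, and each tumour panel holds 12 calls on both sides of 0, with Psrc1 and Ak1 at opposite ends in the comparison with WT.

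Zmat3, a zinc finger RNA-binding protein that p53 induces in many tissues (chr3:32334792-32366014), had the smallest unadjusted p of the members at both times. At 12 dpi the 7 CKO animals ran from 145 to 190 CPM (median 166), and the 5 WT animals had 103, 107, 123, 127 and 128 CPM. Every CKO animal thus lay above every WT animal (log2 fold change 0.50 ± 0.16 SE, unadjusted p = 0.00359, adjusted p = 0.809). At 90 dpi CKO animals ran from 116 to 252 CPM (median 151) and WT animals had 94.1, 106, 114, 118 and 180 CPM, which overlapped (0.47 ± 0.17 SE, unadjusted p = 0.00782, adjusted p = 0.791). The highest CKO value was that of the animal labelled CKO_20647, whose Nf1 level lay inside the WT range. The next highest was 181 CPM, and without CKO_20647 the difference was 0.32 ± 0.15 SE (adjusted p = 1.00). Neither difference passed the test over all genes. Fitted with the animals of those 2 groups alone, the 12 dpi difference was called (0.48, adjusted p = 0.0452). Zmat3 has a near-identical copy, Gm11032, and how reads were shared between them is not given in the sources used here.

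Eda2r, a tumour necrosis factor receptor family member that binds ectodysplasin A2 and is encoded on the X chromosome (chrX:97333840-97377216), was the other member whose groups did not overlap at 12 dpi. The WT animals had 0.973, 1.16, 1.29, 1.34 and 2.13 CPM, and the CKO animals ran from 0 to 0.927 CPM (median 0.458). The difference was not called (log2 fold change -1.38 ± 0.96 SE, adjusted p = 1.00), and it rests on few counts. Groups did not overlap for 2 of 31 members at 12 dpi, against 1.33% of all genes, and for 0 of 31 at 90 dpi, against 0.758%. Gadd45a, a growth arrest and DNA damage protein, averaged 3.67 ± 1.3 CPM in CKO and 7.15 ± 2.2 CPM in WT at 12 dpi and 5.5 ± 1.8 against 3.58 ± 2.2 CPM at 90 dpi, so that its sign differed between the times (-0.87 ± 0.43 and 0.32 ± 0.44, adjusted p = 1.00 for both). Apaf1, the core of the apoptosome, averaged 18.9 ± 4.5 CPM in CKO and 26.7 ± 2.9 CPM in WT at 90 dpi (-0.50 ± 0.20, adjusted p = 0.896). Without the animal labelled CKO_20647, which had the lowest Apaf1 of its group (12.3 CPM), the difference was -0.43 ± 0.20 (adjusted p = 1.00).

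In tumours the members split. Against WT at 150 dpi, 12 of 31 were called, 5 higher and 7 lower (38.7%), where 46.2% of all genes were called, 24.3% higher and 21.9% lower. Against CKO OPCs at 90 dpi, 12 of 31 were called, 6 higher and 6 lower (38.7%), where 49.1% of all genes were called, 26.4% higher and 22.6% lower. These shares are no result about the members, since their difference from the share of all genes was not tested. Without the animal labelled CKO_20647 the same 12 members were called in each comparison. Without the tumour labelled Tumor_21256 those 12 were called in each, together with Apaf1 against WT (adjusted p = 0.043) and with Ddit4 (adjusted p = 0.0162) and Xpc (adjusted p = 0.0477) against CKO. Groups did not overlap for 2 of 31 members against WT (15.7% of all genes) and for 5 of 31 against CKO (17.2% of all genes). The members' median log2 fold change was 0.22 against WT (0.06 over all genes) and 0.01 against CKO (0.12 over all genes). The comparisons share the 7 tumours and are not independent. Tumours also differed in the RNA of other gene lists. Against WT, 11 of 12 neuron markers fell and 0 rose, 10 of 12 OPC markers rose and 1 fell, and 11 of 12 microglia markers rose. Of oligodendrocyte markers, 6 of 10 fell and 1 rose. In addition, 20 of 20 proliferation genes rose and 8 of 10 immediate early genes fell. Astrocyte markers summed to 1138 to 2531 CPM in tumours and 1648 to 1993 CPM in WT at 150 dpi. Endothelial markers summed to 111 to 257 CPM and 233.5 to 337.8 CPM. No gene of these lists was at 0 in tumours. The part of these shifts in the members' changes was not tested.

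**Figure D2:**
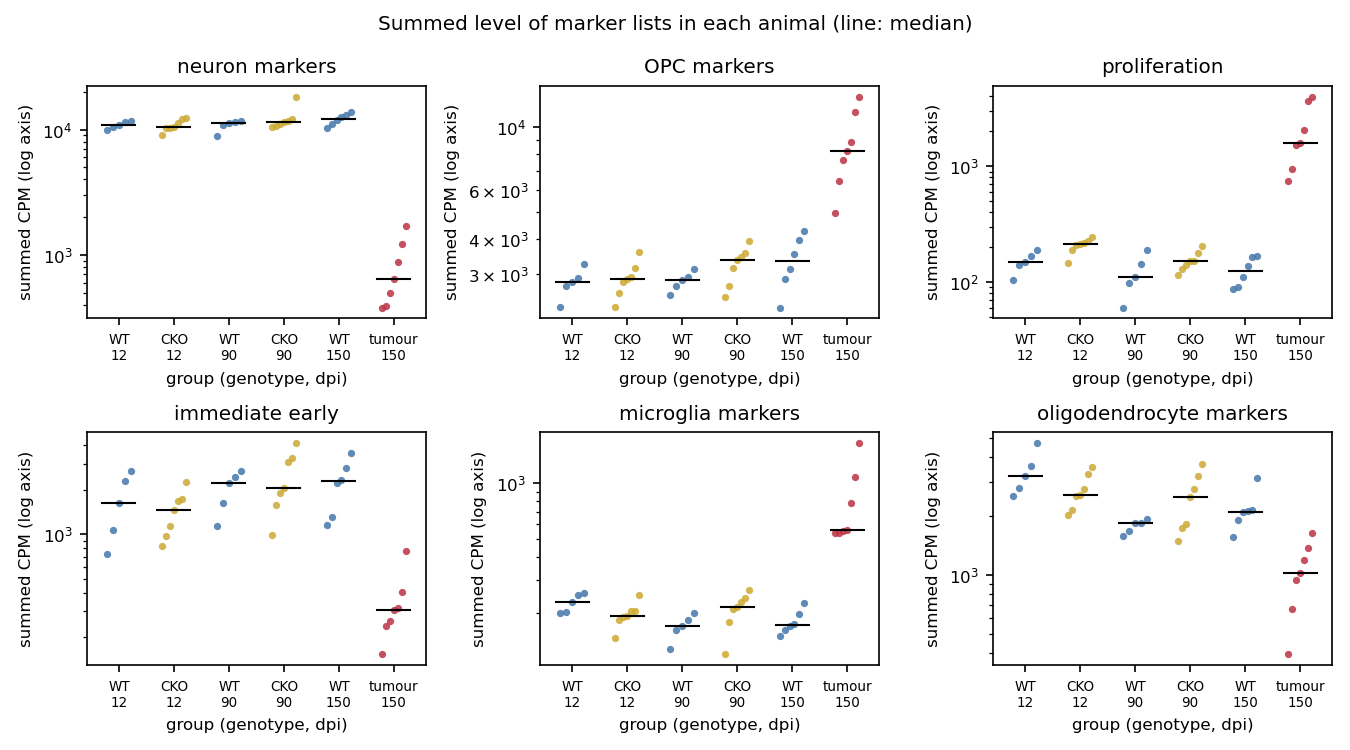
Summed CPM of 6 marker lists (vertical axis, log scale) in each animal of the 6 bulk groups (horizontal axis), with the median as a line and animals of a group in order of value. Tumours sit apart from the other groups in the neuron, OPC, proliferation and microglia lists, with neuron markers at 378.9 to 1689 CPM against at least 8816 CPM elsewhere.

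Among the 7 cell cycle genes, which include arrest genes and genes of dividing cells, 2 were higher and 2 lower in tumours in both comparisons. Of all genes, 46.2% were called against WT and 49.1% against CKO at 90 dpi, and the difference from these shares was not tested. Cdkn1a (p21; gene at chr17:29090979-29100722) halts cells in G1. In WT it had 103, 106, 115, 145 and 148 CPM at 12 dpi and 85.3, 92.2, 116, 136 and 165 CPM at 90 dpi, and it ran from 96.7 to 127 CPM at 150 dpi (median 106). In CKO it ran from 109 to 214 CPM at 12 dpi (median 125) and from 131 to 233 CPM at 90 dpi (median 174). Its level in CKO OPCs thus overlapped that in WT at both times, with a log2 fold change of 0.22 ± 0.32 SE at 12 dpi and 0.51 ± 0.33 SE at 90 dpi (adjusted p = 1.00 for both).

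The 7 tumours had 12.5, 20.6, 26.2, 29.3, 29.7, 94.6 and 104 CPM of Cdkn1a. Of these, 5 lay below every animal of the other groups, 1 lay just under the lowest WT animal at 150 dpi and 1 lay within the WT range. Cdkn1a fell in tumours against WT (log2 fold change -1.28 ± 0.31 SE, adjusted p = 0.00082) and against CKO at 90 dpi (-1.94 ± 0.30 SE, adjusted p = 1.73e-06), in the latter with no overlap between the groups. Leaving out each of the 37 animals in turn gave -1.63 to -1.10 against WT, called each time; without the tumour labelled Tumor_21256 the value was -1.60 ± 0.30 SE. The 2 tumours with the highest Cdkn1a, Tumor_16713 and Tumor_21256, had neuron marker sums of 378.9 and 1689 CPM, the lowest and the highest of the 7.

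Btg2, an antiproliferative gene that is also an immediate early gene, ran from 12.3 to 39.5 CPM in tumours (median 20.0), from 26.8 to 158 CPM in WT at 150 dpi (median 55.5) and from 44.0 to 89.1 CPM in CKO at 90 dpi (median 72.3). It fell in both comparisons (log2 fold change -1.62 ± 0.41 SE, adjusted p = 0.0015, and -1.50 ± 0.40 SE, adjusted p = 0.00198), and the tumours did not overlap the CKO animals at 90 dpi. The immediate early list summed to 152.7 to 763.1 CPM in tumours and to 1159 to 3532 CPM in WT at 150 dpi, and its part in the Btg2 result was not tested.

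Psrc1, a microtubule-binding protein of the mitotic spindle (chr3:108383839-108388231), rose most of the members against WT. It had 1.94, 5.00, 7.81, 7.90, 9.88, 16.6 and 16.7 CPM in tumours and ran from 0.255 to 0.756 CPM in WT at 150 dpi. Group means in the other 4 groups were 0.304 to 1.13 CPM, with a highest animal of 3.04 CPM. The change was 4.29 ± 0.68 SE on the log2 scale against WT (adjusted p = 2.64e-06) and 3.95 ± 0.58 SE against CKO at 90 dpi (adjusted p = 6.65e-07), with no overlap in either comparison. The proliferation list, which does not hold Psrc1, summed to 747.4 to 3991 CPM in tumours and to 86.75 to 169.2 CPM in WT at 150 dpi, and its part in the Psrc1 result was not tested.

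Gadd45a ran from 6.96 to 36.2 CPM in tumours (median 10.3), from 0.567 to 13.1 CPM in WT at 150 dpi (median 4.20) and from 3.14 to 7.68 CPM in CKO at 90 dpi (median 6.14). It rose in both comparisons (log2 fold change 1.59 ± 0.41 SE, adjusted p = 0.00167, and 1.39 ± 0.39 SE, adjusted p = 0.00312) with overlapping groups. As a group, the tumours were thus lower in Cdkn1a and higher in Gadd45a, both classical arrest genes. Single tumours differed. Above the WT range at 150 dpi in Gadd45a lay Tumor_16839, Tumor_21256 and Tumor_21354 (36.2, 20.6 and 14.3 CPM). In Cdkn1a these lay below that of WT (12.5, 94.6 and 29.3 CPM). The other tumours lay inside the WT range in Gadd45a, and Tumor_16713 (7.36 CPM) lay inside it in Cdkn1a as well (104 CPM). The other 3 cell cycle genes were not called. Ccng1 (cyclin G1) averaged 59.1 ± 10 CPM in tumours and 64.5 to 68.5 CPM in the other groups. Plk2, a polo-like kinase, had similar means in tumours and WT at 150 dpi (82.3 ± 68 and 82.3 ± 19 CPM), but single tumours ran from 18.2 to 216 CPM. Gtse1, which is expressed in G2 and S phase, ran from 0 to 4.18 CPM in tumours (2.89 ± 1.42 SE against WT, adjusted p = 0.095).

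**Figure D3:**
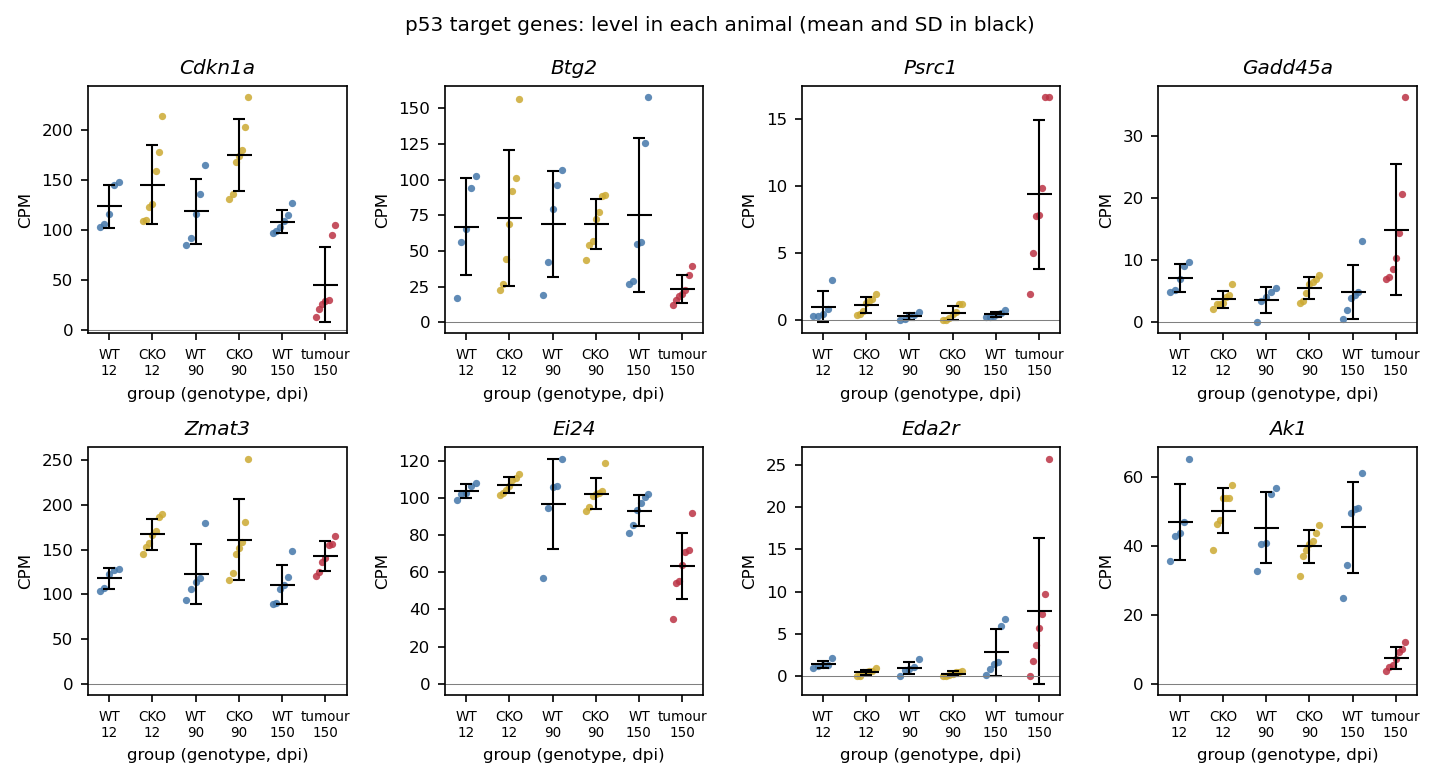
CPM (vertical axis) of 8 p53 target genes in each animal of the 6 bulk groups (horizontal axis), with group mean and SD in black and animals of a group in order of value. Cdkn1a, Btg2, Ei24 and Ak1 are lowest in tumours, Psrc1 and Gadd45a are highest there, and Zmat3 at 12 dpi is higher in all 7 CKO than in all 5 WT animals.

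Of the 13 cell death genes, 2 rose and 2 fell against WT, and 4 rose and 1 fell against CKO at 90 dpi. Of all genes, 24.3% rose and 21.9% fell against WT, and 26.4% rose and 22.6% fell against CKO. The difference from these shares was not tested. Aen, an apoptosis-enhancing nuclease, ran from 12.8 to 30.5 CPM in tumours (median 21.0), from 2.83 to 16.7 CPM in WT at 150 dpi (median 9.30) and from 9.73 to 17.5 CPM in CKO at 90 dpi (median 13.5). It rose in both comparisons (log2 fold change 1.10 ± 0.24 SE, adjusted p = 0.000298, and 0.72 ± 0.22 SE, adjusted p = 0.00747). Ei24, an endoplasmic reticulum protein first found through its induction by etoposide, ran from 35.0 to 91.8 CPM in tumours (median 63.9), from 81.0 to 102 CPM in WT at 150 dpi and from 92.8 to 119 CPM in CKO at 90 dpi. It fell in both (-0.56 ± 0.14 SE, adjusted p = 0.00125, and -0.70 ± 0.13 SE, adjusted p = 5.07e-05), without overlap against CKO. Fitted with the tumours and WT animals alone, the Ei24 difference from WT was not called (-0.51, adjusted p = 0.0622).

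Bbc3 (PUMA) and Pmaip1 (NOXA) are BH3-only proteins that trigger mitochondrial cell death. Bbc3 ran from 0.879 to 3.23 CPM in tumours (median 1.73) and from 1.70 to 7.02 CPM in WT at 150 dpi (median 5.80), and it fell (log2 fold change -1.41 ± 0.33 SE, adjusted p = 0.000538). Against CKO at 90 dpi, where it averaged 2.66 ± 1.1 CPM, the same tumours did not pass the test (-0.40 ± 0.32 SE, adjusted p = 0.312). Pmaip1 averaged 4.07 ± 3.9 CPM in tumours, 2.08 ± 1.35 CPM in WT at 150 dpi and 1.99 ± 1.47 CPM in CKO at 90 dpi and was called in neither. Bax, the pore-forming effector of the same pathway, averaged 30.3 ± 9.5 CPM in tumours and 24.4 to 28.4 CPM elsewhere. It was not called by edgeR, and DESeq2 called it higher than in CKO at 90 dpi (adjusted p = 0.0452). Bax shares exon sequence with an overlapping gene model, Gm45808, on the same strand.

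Apaf1 ran from 24.2 to 44.8 CPM in tumours (median 27.3), from 12.3 to 25.5 CPM in CKO at 90 dpi (median 20.2) and from 15.8 to 34.0 CPM in WT at 150 dpi (median 22.2). It rose against CKO (log2 fold change 0.77 ± 0.18 SE, adjusted p = 0.000559) but was not called against WT (0.42 ± 0.19 SE, adjusted p = 0.0648), where it was called with DESeq2's size factors (0.57, adjusted p = 0.0115). Trp53inp1, a stress-induced partner of p53, ran from 32.8 to 204 CPM in tumours (median 77.2), from 28.7 to 55.0 CPM in CKO at 90 dpi and from 31.7 to 159 CPM in WT at 150 dpi, and it rose against CKO only by this test (1.26 ± 0.37 SE, adjusted p = 0.0054, and 0.40 ± 0.38 SE, adjusted p = 0.415 against WT). Whether the 2 differences differ from each other was not tested; the difference of CKO from WT was not called as changed between 90 and 150 dpi (0.34 ± 0.57 SE, adjusted p = 0.71). Eda2r had 0, 1.73, 3.61, 5.71, 7.36, 9.68 and 25.7 CPM in tumours, 0 to 0.648 CPM in CKO at 90 dpi and 0.0945 to 6.80 CPM in WT at 150 dpi. It rose against CKO (4.59 ± 0.92 SE, adjusted p = 8.26e-05) and was not called against WT (1.51 ± 0.83 SE, adjusted p = 0.138).

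Zmat3 ran from 121 to 165 CPM in tumours (median 141) and from 89.5 to 148 CPM in WT at 150 dpi (median 108), just past the threshold (log2 fold change 0.37 ± 0.15 SE, adjusted p = 0.0457). Leaving out 1 animal kept this call in 27 of 37 fits, with an adjusted p of 0.00763 to 0.122. Of the receptors, Fas averaged 1.64 ± 0.77 CPM and Tnfrsf10b, a TRAIL receptor, 5.45 ± 1.9 CPM in tumours, and neither was called by edgeR. DESeq2 called Fas higher than in CKO at 90 dpi (adjusted p = 0.0358), and so did edgeR fitted with those groups alone (adjusted p = 0.0143). The remaining 2, Phlda3 (a repressor of Akt) and Perp (a membrane protein of desmosomes), averaged 6.35 ± 3.1 and 3.23 ± 3.3 CPM in tumours and 3.96 ± 2.5 and 6.27 ± 3.4 CPM in WT at 150 dpi, with adjusted p = 0.154 and 0.0872 against WT.

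Of the 5 DNA repair genes, 0 were called against WT by edgeR, 0 by DESeq2 and 0 at an unadjusted p under 0.05, and 1 fell against CKO at 90 dpi. By edgeR, 46.2% of all genes were called against WT and 49.1% against CKO. DESeq2 called 8017 of the 16349 genes against WT. At an unadjusted p under 0.05 the share of all genes is at least that of edgeR's calls, because adjustment never lowers a p. The difference of the members from these shares was not tested. The summed level of the 5 was 113.8 to 136.8 CPM in tumours and 117.3 to 150.2 CPM in WT at 150 dpi, ranges that overlap. Ddb2, which recognises ultraviolet lesions, ran from 5.21 to 11.3 CPM in tumours (median 7.04), from 5.67 to 13.4 CPM in WT at 150 dpi and from 9.99 to 19.7 CPM in CKO at 90 dpi. It fell against CKO (log2 fold change -0.94 ± 0.22 SE, adjusted p = 0.000547) and was not called against WT (-0.46 ± 0.23 SE, adjusted p = 0.101). Exons of Ddb2 overlap those of Acp2 on the opposite strand, and whether counting used strand is not given in the sources used here. Xpc, the damage sensor of nucleotide excision repair, averaged 15.9 ± 4.25 CPM in tumours and 13.6 ± 2.19 CPM in WT at 150 dpi. Against CKO at 90 dpi it was not called by edgeR (adjusted p = 0.0595) and was called higher by DESeq2. Ercc5, an endonuclease of the same pathway, averaged 34.4 ± 6.9 against 37.2 ± 10 CPM. Polk, a translesion polymerase, averaged 15.1 ± 4.6 against 19.0 ± 4.1 CPM, and Rrm2b, the p53-inducible ribonucleotide reductase subunit, 48.4 ± 11 against 52.0 ± 17 CPM.

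Among the metabolic and stress genes, Ak1, an adenylate kinase that balances adenine nucleotides (chr2:32621758-32635058), showed the largest fall of any member. It had 3.73, 4.73, 5.39, 7.14, 9.15, 9.99 and 12.2 CPM in tumours, whereas WT animals at 150 dpi ran from 25.0 to 61.3 CPM (median 50.1) and CKO animals at 90 dpi from 31.3 to 46.1 CPM (median 40.5). The change was -2.57 ± 0.22 SE on the log2 scale against WT (adjusted p = 2.71e-12) and -2.36 ± 0.21 SE against CKO (adjusted p = 1.11e-11), with no overlap. Before tumours Ak1 did not pass the test between genotypes (0.08 ± 0.22 SE at 12 dpi and -0.12 ± 0.23 SE at 90 dpi, adjusted p = 1.00 for both). Neuron markers fell with it, with a median log2 fold change of -3.52 against WT, and their part in the Ak1 result was not tested.

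Ddit4 (REDD1) and the sestrins restrain mTORC1 signalling. Ddit4 ran from 4.70 to 19.8 CPM in tumours (median 8.68) and from 10.2 to 28.5 CPM in WT at 150 dpi (median 24.1), and it fell (log2 fold change -1.08 ± 0.32 SE, adjusted p = 0.00502). Against CKO at 90 dpi, which averaged 16.6 ± 4.2 CPM, it was not called (-0.66 ± 0.31 SE, adjusted p = 0.0703). Sesn1 ran from 36.2 to 62.5 CPM in tumours and from 55.0 to 74.6 CPM in WT at 150 dpi and fell by a small amount in both comparisons (-0.39 ± 0.13 SE, adjusted p = 0.0157, and -0.39 ± 0.13 SE, adjusted p = 0.0108). Under DESeq2's size factors Sesn1 was not called in either (adjusted p = 0.126 against WT), nor was it called against WT without Tumor_16844 (0.0531), WT_21593 (0.0585) or WT_22064 (0.0822).

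Sesn2 averaged 8.33 ± 3.6 CPM in tumours and 4.50 ± 1.8 CPM in WT at 150 dpi, a rise at the threshold (log2 fold change 0.81 ± 0.34 SE, adjusted p = 0.0495) that 23 of 37 fits with 1 animal left out kept. The sestrins thus lay on opposite sides of 0 in the same comparison. Tigar, which lowers glycolytic flux, averaged 9.12 ± 4.5 against 6.79 ± 1.3 CPM, and Dcxr, a xylulose reductase, 4.26 ± 1.6 against 3.01 ± 2.27 CPM, and neither was called by edgeR. DESeq2 called Dcxr higher than in CKO at 90 dpi (adjusted p = 0.0363). Gdf15, a secreted stress cytokine, did not reach the count filter. It was at 0 in every WT animal at 12 and 150 dpi, no higher than 0.155 CPM in the other groups without tumours, and at 0 to 1.26 CPM in tumours (median 0.530).

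The regulators of p53 were described in the same way from a list of 16 genes. None was called in CKO against WT, and in tumours 7 rose and 4 fell against WT (68.8%, where 46.2% of all genes were called) and 8 rose and 4 fell against CKO at 90 dpi (75%, where 49.1% of all genes were called). Mdm2, which is both the main inhibitor of p53 and one of its targets, averaged 87.2 ± 16 CPM in tumours, 89.8 ± 6.7 CPM in WT at 150 dpi and 85.5 ± 3.3 CPM in CKO at 90 dpi and was called in neither comparison (-0.04 ± 0.13 and 0.03 ± 0.12 SE). Trp53 averaged 44.3 ± 18 CPM in tumours and 26.0 ± 8.2 CPM in WT at 150 dpi and rose (0.74 ± 0.24 SE, adjusted p = 0.00971). Cdkn2a, whose products include the Mdm2 inhibitor Arf, averaged 7.84 CPM in tumours and no more than 0.329 CPM in any other group. Counts per gene do not separate its transcripts, so they do not measure Arf alone. Cdkn2a rose against WT (7.26 ± 1.13 SE, adjusted p = 3.03e-06) and against CKO at 90 dpi (4.73 ± 0.81 SE, adjusted p = 1.31e-05). The size of these fitted changes rests on the few counts of the other groups. Chek1, a checkpoint kinase of replication stress, rose by 2.56 ± 0.51 SE against WT (adjusted p = 8.56e-05). Kat5, an acetyltransferase that acts on p53, fell (-0.66 ± 0.17 SE, adjusted p = 0.00137). A list of 11 further p53 targets held 6 that rose and 0 that fell against WT (54.5%, where 24.3% of all genes were called higher). Among them were Pidd1, a death domain adaptor (2.51 ± 0.66 SE, adjusted p = 0.00209), and Lif, a cytokine of the interleukin-6 family (2.61 ± 0.93 SE, adjusted p = 0.0212). Lif averaged only 1.54 CPM in tumours and 0.279 CPM in WT at 150 dpi. The list's median log2 fold change was 0.98, where that of the 31 tested members was 0.22 and that of all genes 0.06. For both lists, the difference from the shares of all genes was not tested. The part of the shifts in cell type markers and proliferation genes was not tested either.

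No member was called between time points within a genotype before tumours. In CKO OPCs from 12 to 90 dpi, 0 of 31 were called by edgeR (0% of all genes), 0 had an unadjusted p under 0.05 (4.26% of all genes) and DESeq2 called 0. Without the animal labelled CKO_20647 it was 0 of 31 as well. In WT, 0 of 31 were called from 12 to 90 dpi (0.00612% of all genes) and 0 from 90 to 150 dpi (0.0183%), again with 0 at an unadjusted p under 0.05 (4.86% and 8.26% of all genes) and 0 by DESeq2. Of the 31 members, 25 had a negative log2 fold change from 12 to 90 dpi in CKO (median -0.09) and 23 in WT (median -0.11), where 7747 and 8178 of all 16349 genes did. Between 12 and 90 dpi, the difference of CKO from WT changed for 0 of 31 members (0% of all genes), with 0 at an unadjusted p under 0.05 (3.6% of all genes) and 0 by DESeq2.

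The genotype effect at 150 dpi, where CKO means tumour, differed from that at 90 dpi for 8 of 31 members (25.8%), where 30% of all genes were called, 14.2% more positive and 15.8% more negative. It was more positive for Psrc1 (3.62 ± 0.94 SE, adjusted p = 0.00297), Eda2r (3.59 ± 1.26 SE, adjusted p = 0.0284), Aen (0.93 ± 0.35 SE, adjusted p = 0.0421) and Apaf1 (0.93 ± 0.28 SE, adjusted p = 0.00969). It was more negative for Ak1 (-2.45 ± 0.31 SE, adjusted p = 1.28e-07), Cdkn1a (-1.79 ± 0.45 SE, adjusted p = 0.0024), Ddit4 (-1.28 ± 0.47 SE, adjusted p = 0.0378) and Ei24 (-0.57 ± 0.21 SE, adjusted p = 0.0338). Without the animal labelled CKO_20647, or without the tumour labelled Tumor_21256, the same 8 were called. Not all 8 calls held under other settings: of 7 other ways of processing, Ei24 was called in 1 and Ddit4 in 3, and DESeq2's size factors left 4 more positive and 2 more negative, without Ei24 (adjusted p = 0.104) and Ddit4 (adjusted p = 0.0713), where the share of called genes that were more positive went from 47.2% to 57.3%. For Cdkn1a the effect had the opposite sign before tumours (0.51 ± 0.33 SE at 90 dpi). This comparison shares its animals with those above.

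Members also differed in how alike the tumours were. On the log2(CPM + 1) scale the median SD of the 31 members between animals was 0.51 in tumours and 0.28 to 0.56 in the other groups, the highest being WT at 90 dpi, which holds the shallow animal. Over all tested genes it was 0.56 in tumours and 0.28 to 0.45 elsewhere. The most variable member between tumours was Eda2r (SD 1.51), and 9 of 31 members (29%) had a larger SD in tumours than in every other group, as had 42% of all tested genes.

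The 10-cell libraries ask whether targets differ from one small group of CKO OPCs to the next beyond what pool-and-split controls show. Detection set the limit. Of the 32 members, 17 had a count above 0 in at least 50% of the small libraries and entered the test of spread. Cdkn1a was detected in 55 of 56 10-cell libraries at 12 dpi (98.2%, 95% exact interval 90.5 to 99.9%) and in all 56 at 90 dpi, with medians of 18.1 and 28.3 CPM. Tnfrsf10b was detected in every small library, with medians of 9.65 to 28.2 CPM by kind and time, and it has a near-identical copy, Gm15574. Gtse1 was at 0 in all 56 10-cell libraries at either time, which allows a share of libraries of up to 5.36% at each time, taking 3 libraries of 56 as the limit that a count of 0 allows. The 95% exact interval drawn for it reaches 6.375%. Eda2r was detected in 2 and Gdf15 in 1 of 56 10-cell libraries at 90 dpi and in 0 of 56 at 12 dpi. Intervals and limits cover counting error only.

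**Figure D4:**
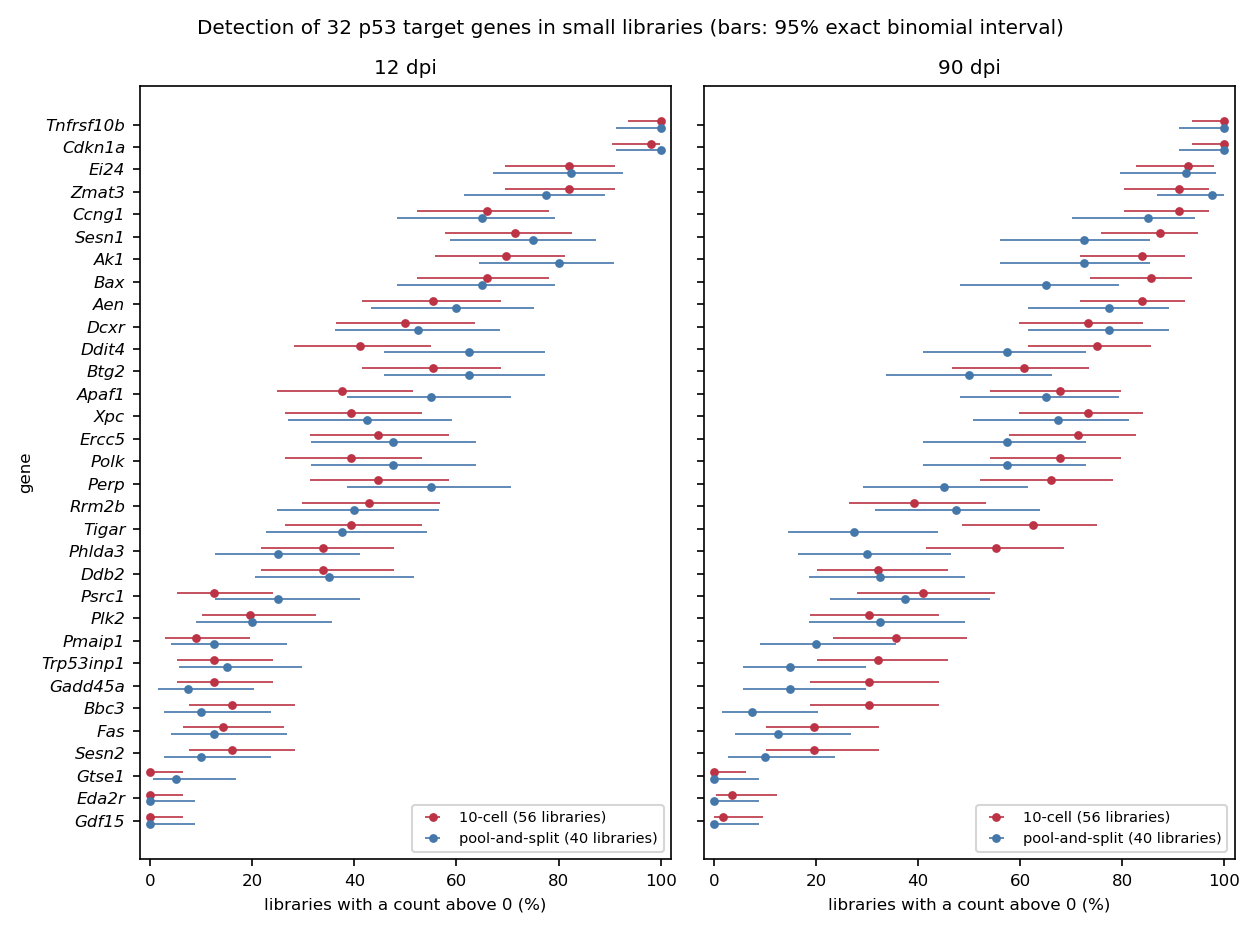
Percent of small libraries with a count above 0 (horizontal axis) for each of the 32 p53 target genes (vertical axis), with 95% exact binomial intervals, at 12 dpi (left) and 90 dpi (right). Tnfrsf10b and Cdkn1a are found in nearly every library of both kinds, whereas Gtse1, Eda2r and Gdf15 are almost never found.

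No member had a spread between 10-cell libraries that differed from that between pool-and-split libraries by limma's moderated test on absolute deviations: 0 of 17 at 12 dpi (0.135% of all 8889 genes), 0 of 17 at 90 dpi (0.0337%) and 0 of 17 for the change between the times (0.484%). Single libraries were the units of this test, so its p-values and SEs do not measure the spread between sets or animals. At an unadjusted p under 0.05 there were 0, 1 and 1 members (11.4%, 10.1% and 14.4% of all genes). Both were Perp, whose mean SD on the log2(CPM + 1) scale at 90 dpi was 2.57 in 10-cell and 1.80 in pool-and-split libraries, and 2.04 and 2.65 at 12 dpi (change 1.43 ± 0.59 SE, adjusted p = 0.244). Its SD was larger in 10-cell libraries in 3 of 4 sets at 90 dpi and in 1 of 4 at 12 dpi. Cdkn1a, the best detected of the arrest genes, had a mean SD of 1.94 in 10-cell and 1.61 in pool-and-split libraries at 12 dpi and 1.495 and 1.403 at 90 dpi, larger in 10-cell libraries in 3 of 4 sets each time. The test called neither difference.

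From 12 to 90 dpi, 0 of 28 members tested in 10-cell sets and 0 of 24 tested in pool-and-split sets were called by edgeR (0% of all genes in both), with 2 and 1 at an unadjusted p under 0.05 (7.13% and 7.83% of all genes) and 0 and 1 called by DESeq2. The labels do not say what the number that defines a set is, so these p-values measure the spread between sets. Medians of other cell types' summed markers in 10-cell libraries at 12 and 90 dpi were 589.3 and 1815 CPM (oligodendrocyte), 2702 and 3848 CPM (astrocyte) and 110.5 and 540.2 CPM (microglia). Neuron markers had 3844 and 3006 CPM, and endothelial markers 607.4 and 562.3 CPM. In pool-and-split libraries the microglia sums were 375.6 and 424.5 CPM. The median number of genes detected was 7550 and 10109.5 in 10-cell libraries and 8690.5 and 8739 in pool-and-split libraries. The part of the markers and of detection in these values was not tested. Ccng1 had 13.6, 20.1, 43.1 and 90.7 CPM in the 10-cell sets at 12 dpi and 40.7, 65.2, 103 and 121 CPM at 90 dpi (log2 fold change 1.20 ± 0.47 SE, adjusted p = 0.668). Bax had 37.6, 67.6, 167 and 186 CPM at 12 dpi and 39.2, 41.1, 44.9 and 65.3 CPM at 90 dpi (-1.28 ± 0.55 SE, adjusted p = 0.684). Both sets of values overlapped between the times. Xpc had 2.79, 4.59, 9.75 and 14.0 CPM in the pool-and-split sets at 12 dpi and 34.9, 48.6, 58.4 and 80.9 CPM at 90 dpi, which did not overlap. It was not called by edgeR (2.80 ± 0.85 SE, adjusted p = 0.598) and was called by DESeq2 (2.77, adjusted p = 0.00583). In the 10-cell sets Xpc had 3.70 to 18.6 CPM at 12 dpi and 11.3 to 41.3 CPM at 90 dpi, with overlap (1.33 ± 0.79 SE, adjusted p = 0.745).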

How the data were processed

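RNA of mouse OPCs was measured in 48 bulk libraries and in small libraries, 240 in all. The authors deposited expected counts per gene, neither scaled nor pooled, made with RSEM and Bowtie2 on GRCm38 per the submitters' processing notes. Versions and strand are not given in the sources used here. Per the labels' protocols, bulk samples went through T7-based amplification and small samples through PCR, so levels were not compared between them. Members and gene lists were chosen with earlier results of these data known. All members, Trp53, Nf1 and Mdm2 are named by rule, and from every other list only genes among its 2 strongest called rises or falls.

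The 92 spike-in rows were left out. Where an animal had 2 libraries (11 animals) these were summed, and sums were rounded to whole numbers. The count model was edgeR 4.0.16 under R 4.3.3, with TMM scaling, a quasi-likelihood test and a term for sex, all 37 animals entering together. Low genes were removed by filterByExpr at its count minimum of 10 and total of 15. The common biological coefficient of variation was 0.418. The quasi-likelihood test gives no SE. The SE printed with an edgeR log2 fold change is its size divided by the square root of the test's F statistic, and is approximate. A call means a p below 0.05 after Benjamini-Hochberg adjustment across every gene tested. For changes over time in small samples, libraries were summed by set (4 per time, of 14 10-cell and 10 pool-and-split libraries). For spread, absolute deviations of log2(CPM + 1) from the median of set and kind were compared with limma 3.58.1. Its units were single libraries, which share sets. Labels name animals only for bulk samples, and p-values elsewhere may measure technical spread. Alternatives were RLE size factors, DESeq2 1.42.0, other filters and pseudocounts, dropping the sex term, using 1 library per animal, fitting 2 groups by themselves, and leaving out each animal or set. Scripts were tested on simulated data.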

Additional observations from a re-analysis of the deposited data

Results flagged for a closer look

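In groups of 5 to 7 animals, 22 sets of values, each of 1 of the 32 members in 1 of the 6 bulk groups, had an animal apart from the others by Dixon's criterion. Chance gives about 1 in 20 such sets. The shallowest animal, WT_21167 at 90 dpi, was the lowest in 8 of them. It had 0 CPM of Gadd45a, Bbc3, Perp, Tnfrsf10b, Xpc and Tigar, 28.4 CPM of Plk2 (others 84.7 to 94.1) and 28.4 CPM of Sesn1 (others 62.0 to 73.1). Without it, 0 members were called in CKO against WT at 90 dpi, as with it.

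The animal labelled CKO_20647 at 90 dpi had 301.6 CPM of Nf1, inside the WT range (274.3 to 343 CPM) and unlike the rest of its group. It was the highest in Plk2 (170 CPM, others 74.3 to 98.3), Phlda3 (15.3 CPM, others 3.15 to 6.03) and Gdf15 (0.122 CPM, others 0 to 0.0321). Its immediate early genes summed to 4155 CPM and its neuron markers to 18300 CPM, the highest of its group in both, and their part in these values was not tested. CKO_22017 at 12 dpi was the highest in Fas (6.13 CPM), Trp53inp1 (96.3 CPM, others 23.0 to 39.9) and Ercc5 (57.5 CPM, others 34.0 to 39.7).

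At 150 dpi, WT_22064 was the highest in Perp (13.0 CPM, others 3.88 to 5.68) and Ercc5 (57.4 CPM), and WT_21593 was the lowest in Bbc3 (1.70 CPM, others 4.59 to 7.02) and Ddit4 (10.2 CPM, others 20.1 to 28.5). Single animals also stood apart in Gtse1 (CKO_22208, 1.62 CPM), Tnfrsf10b (CKO_22149, 0.983 CPM) and Ddb2 (WT_22281, 16.1 CPM, and Tumor_21354, 11.3 CPM, where the other tumours had 5.21 to 7.31 CPM).

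The effect of genotype differed between 150 and 90 dpi, by the interaction test in edgeR, for 8 members. The change on the log2 scale was -1.79 for Cdkn1a, 3.62 for Psrc1, 0.93 for Aen, -0.57 for Ei24, 0.93 for Apaf1, 3.59 for Eda2r, -1.28 for Ddit4 and -2.45 for Ak1. At 150 dpi the CKO samples are tumours, so time and tumour cannot be told apart.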

How the results depend on the processing

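No named call of a member in the tumour comparisons, and no named change of the genotype effect, took the opposite sign under the alternatives run; members without a call did at times. Fitted with the compared groups alone, CKO against WT at 12 dpi gave 1 member (Zmat3) and 92 genes in place of 0 and 3. The difference of CKO from WT changed between 90 and 150 dpi for 8 members, for 4 of the 18 with a mean of at least 10 CPM, and for 5 to 9 when 1 animal was left out (5 without WT_22064 or WT_22255). Its calls for Aen, Ddit4 and Ei24 held in 24, 22 and 22 of 37 such fits, and that for Eda2r was lost without Tumor_16839 (adjusted p = 0.0697) or WT_22255 (0.0572). DESeq2 called 1 member in the pool-and-split sets and 523 genes, where edgeR called 0, and 273 genes and 0 members in the 10-cell sets. With a replicate block of sex and number, 0 members were called in the 10-cell and 0 in the pool-and-split sets. Same-numbered sets did not deviate together (correlations -0.04 to 0.02), so the numbers do not pair the sets.

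RLE size factors raised the median of all genes from 0.06 to 0.22 (log2) in tumours against WT and from 0.12 to 0.29 against CKO at 90 dpi, and the share of called genes that were higher from 52.6% to 62.0% and from 53.9% to 63.5%. The members' split went from 5 higher and 7 lower to 6 and 6 against WT, and from 6 and 6 to 7 and 5 against CKO, with Sesn1 lost in both. The test of spread called 0 members under each alternative, while deviations from the mean in place of the median raised the genes called from 12 to 556 at 12 dpi, from 3 to 347 at 90 dpi and from 43 to 823 for the change. WT at 90 against 12 dpi gave 295 genes in place of 1 with those groups alone, and 0 members. Leaving out 1 animal gave 10 to 14 members against WT and 12 to 14 against CKO. Genes under a few CPM, such as Gtse1 and Eda2r, are limited by depth.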
